A study of Mus musculus with 9 samples.

Results

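The genes described here are Sorcs1, Kcnh8, Kcnip4, Dock10, Npas3 and Gria3, which are known mainly from the nervous system and which were counted in nuclei of injured mouse kidney tubule. They are 6 of the 19858 genes in the deposited count tables and are in both tables. They were chosen by their rise over control in these same counts, so their difference from control in proximal tubule nuclei is given as a description and no test is read from it. Comparisons other than that rise are tested below: day 28 against day 7, the injury state of nuclei within injured kidneys, and the thick ascending limb. The last is again injured against control, in other nuclei of the same libraries, so it is not separate from that rise. The genes were chosen with earlier results of these data known, so these tests cannot be taken as independent of the choice.

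Single-nucleus RNA was counted in 9 kidney libraries, each from 1 male mouse of 11 to 19 weeks. The 4 controls carried Six2TGC; Rosa26rtTA ; pTRE-H2BeGFP and ate doxycycline food (625 mg/kg), so that a nuclear GFP labelled cells of the nephron lineage; control 1 had no surgery and controls 2 to 4 had sham surgery. The injured mice carried Krt20T2A-CE; INTACTnuGFP/+ and received tamoxifen (0.05 mg/g), which labels cells that express the injury keratin Krt20 and their descendants; 2 were taken at day 7 and 3 at day 28 after an 18 min clamp of both renal pedicles (ischemia-reperfusion injury, IRI). GFP-positive nuclei were sorted, so genotype, drug, sort and injury differ together between control and IRI and cannot be told apart, while day 28 against day 7 is free of that difference.

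Sorcs1 encodes a sorting receptor of the VPS10 family that moves membrane proteins between compartments of neurons. Kcnh8 encodes a voltage-gated potassium channel of the ELK group, Kcnip4 a calcium-binding auxiliary subunit of Kv4 potassium channels, and Gria3 a subunit of AMPA-type glutamate receptors. Dock10 encodes a guanine nucleotide exchange factor for small GTPases, known from lymphocytes as well as neurons, and Npas3 a transcription factor with bHLH and PAS domains that is studied in the brain. After ischemia, proximal tubule cells that lose their transport programme switch on Havcr1 (KIM-1), and cells that fail to recover carry Vcam1.

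All 6 are long protein-coding genes. In GRCm38 (GENCODE mouse release 21) Sorcs1 lies on chr19:50143299-50678646, Kcnh8 on chr17:52602709-52979194, Kcnip4 on chr5:48389502-49524907, Dock10 on chr1:80501073-80758527, Npas3 on chr12:53248677-54072175 and Gria3 on chrX:41400854-41678601. Their spans run from 257.5 kb for Dock10 to 1135.4 kb for Kcnip4, and each is longer than most of the genes tested, by a share that runs up to 99.74% for Kcnip4. RefSeq start sites were at hand for 5 of the 6 (Gria3 has no entry), and the 250 bases before a start site are shown for the 3 genes on which the state patterns below turn. Capitals mark the one match to the AP-1 letters TGANTCA, and lower case is the rest.

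Kcnip4, GRCm38.p6, chr5:49285660-49285909, minus strand: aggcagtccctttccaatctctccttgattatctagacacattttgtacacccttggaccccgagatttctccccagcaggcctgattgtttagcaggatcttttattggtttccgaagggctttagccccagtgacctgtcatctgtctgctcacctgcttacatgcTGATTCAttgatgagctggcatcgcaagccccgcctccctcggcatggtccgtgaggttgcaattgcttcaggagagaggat

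Dock10, GRCm38.p6, chr1:80758554-80758803, minus strand: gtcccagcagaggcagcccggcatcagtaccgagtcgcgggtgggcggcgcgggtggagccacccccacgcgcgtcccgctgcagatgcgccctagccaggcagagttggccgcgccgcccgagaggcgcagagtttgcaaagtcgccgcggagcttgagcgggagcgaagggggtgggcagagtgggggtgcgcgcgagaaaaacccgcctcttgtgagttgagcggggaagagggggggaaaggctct

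Npas3, GRCm38.p6, chr12:53248182-53248431, plus strand: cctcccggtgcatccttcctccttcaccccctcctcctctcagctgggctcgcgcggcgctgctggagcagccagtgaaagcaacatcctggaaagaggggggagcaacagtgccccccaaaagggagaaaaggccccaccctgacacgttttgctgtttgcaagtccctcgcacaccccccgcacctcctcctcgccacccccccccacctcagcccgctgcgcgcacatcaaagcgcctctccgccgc

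Both strands of the 300-base windows (250 bases before to 50 after a start) of the 5 genes were searched for AP-1 (TGANTCA), RUNX (TGTGGT), NF-kB (GGGNNTTCC), the left part of the REST site and SOX (AACAATG). The Kcnip4 match was the only one, in a start site inside the gene, and it begins 82 bases before the start (position -82). Of 32851 mouse windows of that length, 7.81% hold the AP-1 letters, 16.8% RUNX, 5.82% NF-kB, 0.642% the REST part and 3.78% SOX. The windows differ in base composition: the first start site holds 50 CG pairs in Sorcs1, 32 in Dock10, 21 in Kcnh8, 18 in Npas3 and 7 in Kcnip4, beside a median of 7 over all windows. A match is a description of letters and not of binding.

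The tables held 27738 nuclei with library medians of 668 to 4174 UMIs (unique transcript molecules) per nucleus. Control 4 was the shallowest library, with a median of 668 UMIs. By the starts of their cell barcodes the 4 controls and day 28 mouse 1 used the v2 kit set and the other 4 IRI libraries the v3 set, so day 7 has no comparison with control within 1 set. Of 27606 distinct cell barcodes, 132 occurred in 2 or more libraries. Clusters were rebuilt without the 6 genes and named from marker lists: 22611 nuclei were proximal tubule-like (PT-like) and 1664 thick ascending limb-like (TAL-like). In PT-like sums the transporter Slc34a1 was 440 to 1148 CPM (UMIs of a gene scaled to a common total per sum) in IRI libraries and 3832 to 5089 in controls, while Havcr1 was 213 to 1106 and 1.9 to 8.4.

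In PT-like nuclei all 6 genes were higher in each of the 5 IRI libraries than in any control, and 3 of them were close to absent in the controls. The genes were chosen for their rise, and how many of all genes separate in this way was not counted. Levels below are CPM of the nuclei summed per library, scaled by TMM factors. Sorcs1 was at 4.24, 9.80, 2.21 and 5.68 CPM in controls 1 to 4, at 864 and 809 in the day 7 mice and at 1057, 1145 and 771 in the day 28 mice. Its level in IRI libraries thus lay at 771 CPM or above against 9.80 or below, with no overlap. On the log2 scale the difference from control was 7.31 (SE 0.43) at day 7 and 7.55 (SE 0.42) at day 28.

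The channel genes differed in how much of them the uninjured tubule carried. Kcnh8 was at 1.34, 1.76, 1.77 and 4.42 CPM in the controls, at 413 and 256 at day 7 and at 446, 455 and 482 at day 28. Its log2 differences from control were 7.39 (SE 0.34) and 7.85 (SE 0.34), the day 28 one being the widest of the 6 genes. Kcnip4 was already measurable in controls, at 338, 256, 211 and 658 CPM, and reached 3074 and 2443 at day 7 and 3456, 3716 and 3771 at day 28. Its highest control was the shallow control 4, still well under the lowest IRI library. The log2 differences of Kcnip4 were 2.92 (SE 0.37) and 3.32 (SE 0.35).

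Gria3, the glutamate receptor subunit, moved least. It was at 156, 138, 154 and 51.8 CPM in the controls, at 426 and 434 at day 7 and at 239, 374 and 399.8 at day 28. Control 4 was the low control and day 28 mouse 1, the IRI library with the v2 barcode set, the low IRI library. The log2 differences were 1.77 (SE 0.35) and 1.43 (SE 0.32). With the barcode set as a term they were 1.07 (SE 0.57) and 0.92 (SE 0.41) and were no longer called (adjusted p 0.247 and 0.135, edgeR); for the other 5 genes they stayed between 2.80 and 7.81.

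Dock10 and Npas3 rose from low control levels. Dock10 was at 27.4, 31.4, 25.9 and 33.5 CPM in the controls, at 1255 and 1367 at day 7 and at 1052, 1177 and 1385 at day 28. Npas3 was at 2.45, 0.754, 1.77 and 3.16 CPM in the controls, at 246 and 217 at day 7 and at 162, 243 and 220.2 at day 28. The log2 differences from control were 5.48 (SE 0.23) and 5.36 (SE 0.22) for Dock10 and 6.94 (SE 0.34) and 6.79 (SE 0.33) for Npas3. All 6 genes were called higher at both times, where edgeR's quasi-likelihood test with Benjamini-Hochberg adjustment called 26.3% of 14214 genes higher at day 7 and 24.1% at day 28; since the genes were chosen on this contrast, nothing is read from that count.

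**Figure D1:**
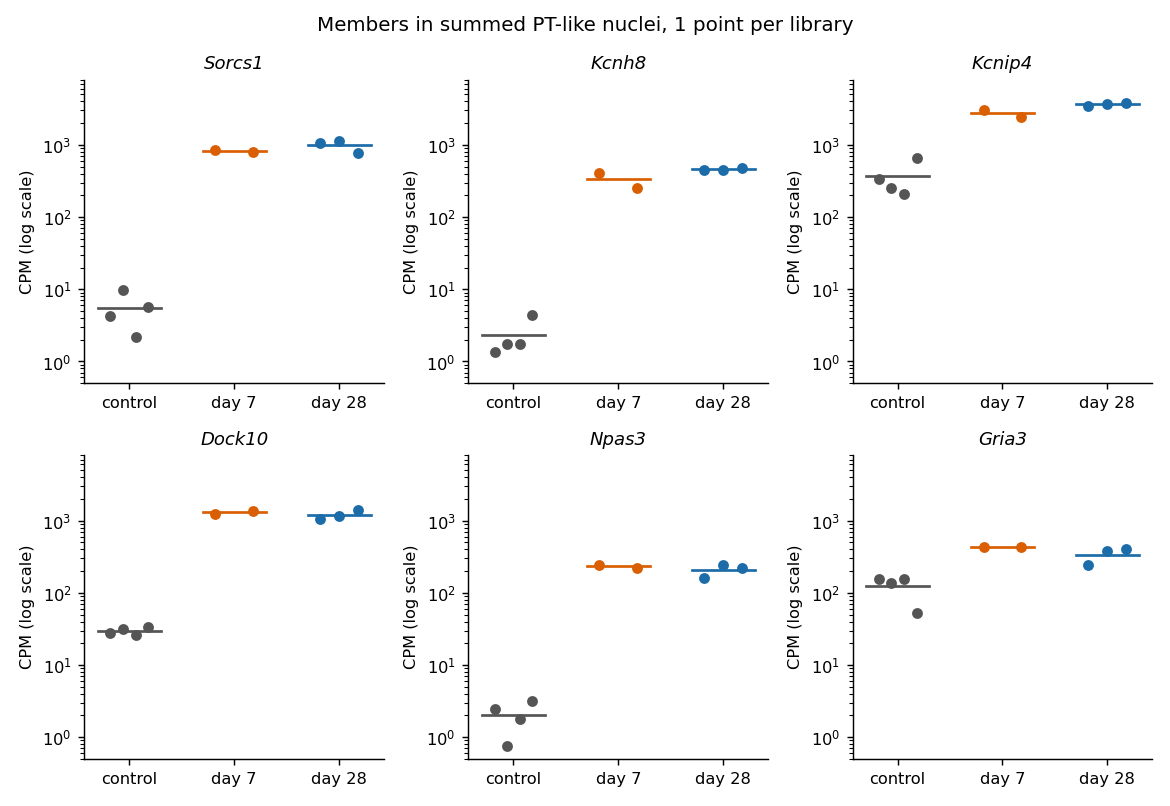
Level of each gene in summed PT-like nuclei, 1 point per library (4 controls, 2 day 7, 3 day 28), in TMM-scaled CPM on a log axis, with the group mean as a line. Controls lie under 10 CPM for Sorcs1, Kcnh8 and Npas3, and every IRI point lies above every control point in all 6 panels.

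None of the 6 genes was called different between day 28 and day 7, a comparison other than the rise over control and in which both groups share genotype and sort. The log2 differences, day 28 minus day 7, were 0.24 (SE 0.38) for Sorcs1, 0.46 (SE 0.29) for Kcnh8, 0.40 (SE 0.41) for Kcnip4, -0.12 (SE 0.23) for Dock10, -0.15 (SE 0.29) for Npas3 and -0.35 (SE 0.38) for Gria3. Adjusted p-values from edgeR's quasi-likelihood test ran from 0.389 for Kcnh8 to 0.800 for Npas3, where 4.32% of 14214 genes were called higher and 1.36% lower. With 2 and 3 mice and these errors, changes of the size of the SEs would not have been detected, so the levels are not shown to be equal. Havcr1, by contrast, stood at 936 to 1106 CPM at day 7 and 213 to 357 at day 28, and Vcam1 at 237 to 263 and 402 to 802.

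The rise reached single nuclei rather than a few bright ones. Shares were taken after thinning each nucleus to 1000 UMIs, which leaves out shallower nuclei. A Kcnip4 UMI was found in 60.4% to 67.4% of PT-like nuclei of IRI libraries and in 3.30% to 16.9% of control nuclei, and a Dock10 UMI in 46.5% to 57.7% and 0.944% to 3.91%. For Sorcs1 the shares were 37.9% to 51.2% and 0.230% to 0.693%, for Kcnh8 20.1% to 32.2% and 0.105% to 0.326%, for Npas3 15.8% to 21.2% and 0.099% to 0.652%, and for Gria3 23.1% to 34.2% and 4.56% to 12.96%. At full depth, with library medians of 1271 to 4456 UMIs in IRI and 667 to 1926 in control PT-like nuclei, Kcnip4 was found in 64.3% to 81.0% of IRI nuclei and Npas3 in 18.9% to 51.4%. At least 3 of the 6 genes were seen together in 43.3% to 51.7% of thinned IRI nuclei and in at most 0.049% of control nuclei.

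Nuclei of other types in the IRI libraries carried the genes too. In endothelium-like nuclei, with library medians of 573 to 1778 UMIs, the thinned shares were 25.0% to 58.1% for Kcnip4, 10.0% to 54.1% for Dock10, 2.50% to 29.7% for Sorcs1, 5% to 20% for Kcnh8, 2.50% to 20.3% for Npas3 and 5.00% to 19.6% for Gria3. Summed endothelium- and leukocyte-like nuclei of an IRI library held 10.3% to 68.3% of the PT-like CPM of Sorcs1, 19.2% to 63.4% for Kcnh8, 15.7% to 74.5% for Kcnip4, 27.0% to 80.9% for Npas3 and 33.0% to 94.8% for Gria3. How much of this was free RNA, doublets or expression in those nuclei was not tested. Dock10, which leukocytes are known to express, reached 45% to 74.4%. In control libraries endothelium-like nuclei had means of 4.48, 7.05, 26.9 and 80.8 CPM for Sorcs1, Kcnh8, Dock10 and Gria3 and 737 for Kcnip4, and Npas3 had no UMI there.

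**Figure D2:**
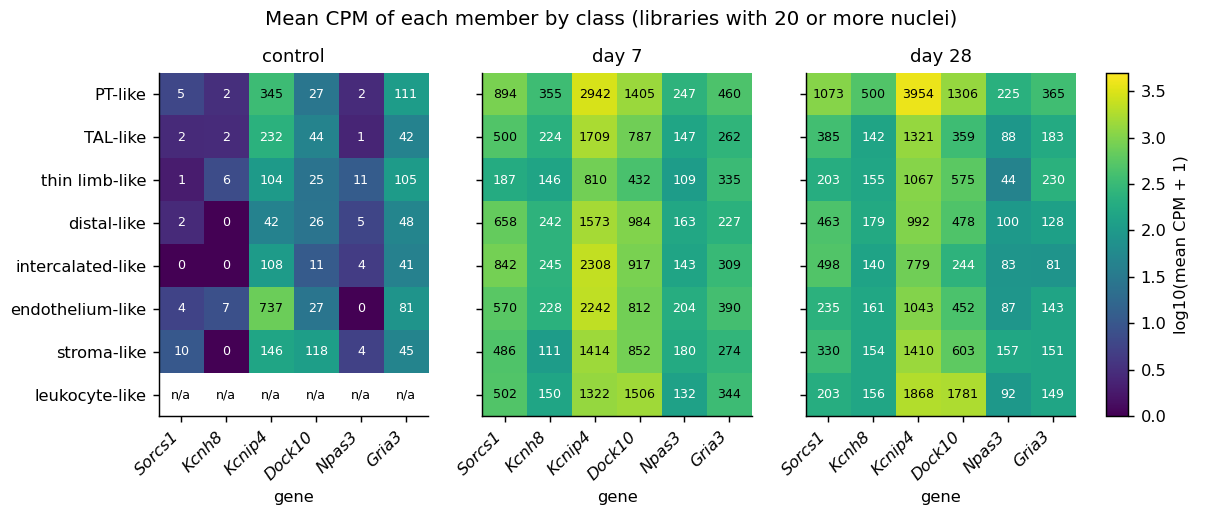
Mean CPM of each gene (unscaled, over libraries with at least 20 nuclei of the class) in control, day 7 and day 28 libraries, coloured by log10(mean CPM + 1). PT-like nuclei hold the highest mean at both times for every gene but Dock10, which is highest in leukocyte-like nuclei, and each class with a control value has a higher IRI mean.

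Within injured kidneys the genes split by the state of the nucleus. PT-like nuclei of each IRI library were divided by whether they held a UMI of Havcr1 or Vcam1, the injury transcripts, and the 5 libraries were compared within themselves. Sorcs1, Kcnh8, Kcnip4 and Dock10 were higher in nuclei with an injury transcript, Gria3 was lower, and Npas3 was not called. The CPM here are unscaled. Nuclei with an injury transcript were also deeper, at medians of 3881 against 1563 UMIs in day 7 mouse 1 and 1302 against 1233 in day 28 mouse 1. The 6 results kept their direction and call without nuclei under 1000 UMIs. That does not make the depth of the compared nuclei equal, and the part of depth in the split was not tested.

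Dock10 went from 672 to 1403 CPM in day 7 mouse 1, from 1051 to 1637 in day 7 mouse 2, and from 735 to 1714, 879 to 1444 and 742 to 1817 in the day 28 mice. It was higher in nuclei with an injury transcript in 5 of 5 libraries, by 1.00 on the log2 scale (SE 0.09, adjusted p = 6.6e-07, edgeR quasi-likelihood with the library as a block). Sorcs1 went from 338 to 986, 569 to 983, 853 to 1585, 958 to 1338 and 425 to 1007 CPM in the same order. That was again higher in 5 of 5, by 1.00 (SE 0.11, adjusted p = 3.6e-06, edgeR).

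The potassium channel pair followed. Kcnh8 rose in 5 of 5 libraries, by 0.90 (SE 0.08, adjusted p = 3.7e-07, edgeR), from 151 to 372 CPM over the libraries without and 319 to 680 with an injury transcript. Kcnip4 rose by 0.70 (SE 0.07, adjusted p = 1.4e-06, edgeR), from 1942 to 3101 without and 2891 to 4817 with. The 4 rises stand where 13.3% of 12854 genes were called higher. Of 646 other genes at least as long as Dock10, 23.4% were called higher and 14.1% lower.

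The glutamate receptor subunit and the transcription factor did otherwise. Gria3 went from 587 to 416, 608 to 445, 304 to 228, 455 to 347 and 491 to 415 CPM. It fell in 5 of 5 libraries, by 0.39 on the log2 scale (SE 0.07, adjusted p = 3.2e-04, edgeR), where 13.1% of genes were called lower. Npas3 went from 257 to 254, 246 to 239, 179 to 186, 257 to 249.4 and 262 to 232 CPM. Its difference was -0.04 (SE 0.07, adjusted p = 0.734, edgeR), which the spread between libraries covers. For all 6 genes the difference of these effects between day 28 and day 7 was not called (adjusted p 0.947 to 1.000, edgeR interaction fit, 0 of 12856 genes called by it).

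**Figure D3:**
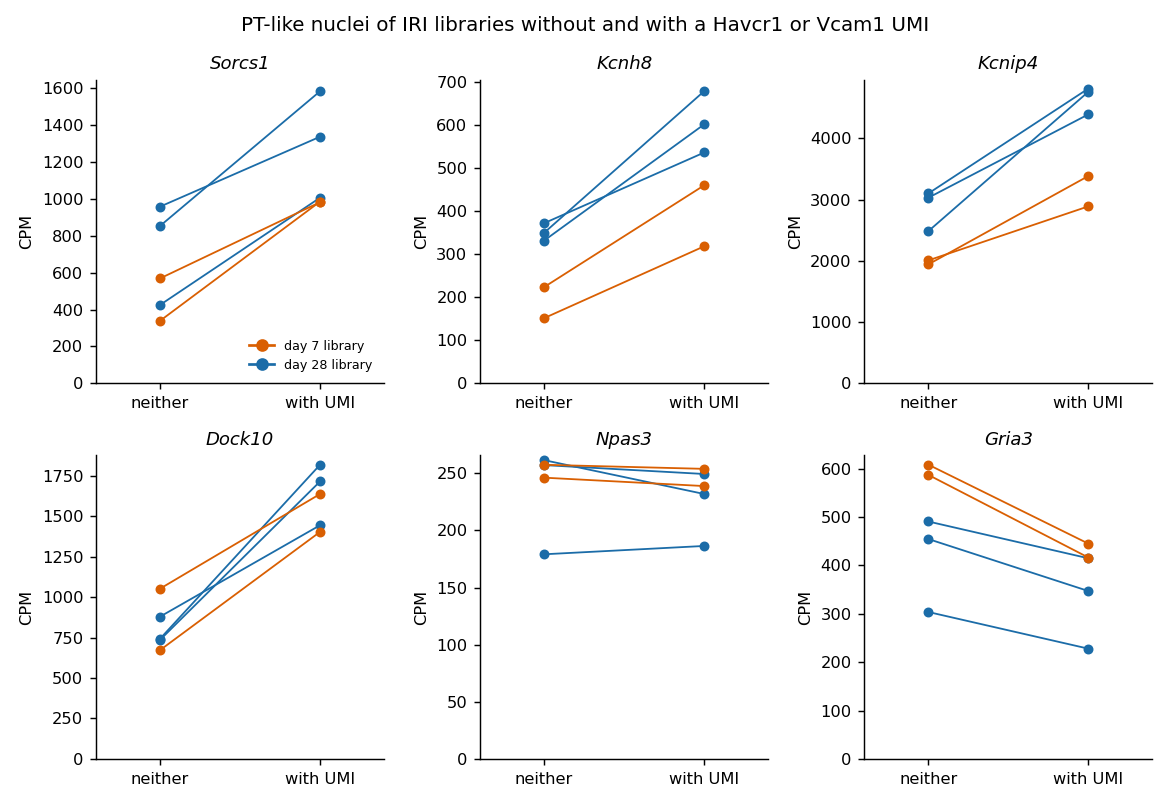
CPM of each gene in PT-like nuclei without (left) and with (right) a Havcr1 or Vcam1 UMI, 1 line per IRI library, orange for day 7 and blue for day 28. Lines rise in 4 panels, fall in the Gria3 panel and run nearly level in the Npas3 panel.

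Nuclei with Vcam1 but no Havcr1 UMI were then set against nuclei with Havcr1 but no Vcam1 UMI, the first being the transcript of cells that fail to recover. Dock10 was higher in the Vcam1-only nuclei and Sorcs1 lower, and the other 4 genes were not called. Dock10 was at 1060 and 1353 CPM in Havcr1-only nuclei of the day 7 mice and 1568 and 1837 in Vcam1-only nuclei. At day 28 it was at 1303, 1147 and 1096 against 2005, 1603 and 2001. The rise was 0.58 (SE 0.07, adjusted p = 6.9e-07, edgeR, higher in 5 of 5 libraries), where 1.6% of 10779 genes were called higher. Of 545 other genes at least as long as Dock10, 5.7% were called higher and 6.1% lower.

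Sorcs1 was at 978 and 967 CPM in Havcr1-only nuclei of the day 7 mice against 544 and 849 in Vcam1-only nuclei. The day 28 values were 1628, 1435 and 1076 against 1239, 1167 and 904. It fell by 0.40 (SE 0.08, adjusted p = 0.0011, edgeR, lower in 5 of 5), where 1.63% of genes were called lower. The log2 differences not called were -0.15 (SE 0.08) for Kcnh8, -0.04 (SE 0.07) for Kcnip4, 0.12 (SE 0.09) for Npas3 and 0.05 (SE 0.08) for Gria3.

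Levels of whole clusters were also compared. PT-like clusters were called uninjured-state, intermediate or injured-state from marker scores set without the 6 genes, and their levels are given with no test because the clusters were made from the same nuclei. Dock10 was at 1603 and 1844 CPM in injured-state nuclei of the day 7 mice and at 1746, 1580 and 1984 at day 28, but at 497 and 722 and at 75.6, 146 and 266 in uninjured-state nuclei of the same libraries. At day 7 the uninjured-state levels came largely from cluster 27, where Dock10 was at 913 CPM against 103 and 166 in clusters 25 and 33, and which held 378 of the 392 Kcnh8 UMIs of that state. Kcnh8 was at 549 and 398 and at 777, 621 and 661 in injured-state nuclei, against 183 and 190.02 and 57.2, 55.7 and 107 in uninjured-state nuclei. Intermediate nuclei held Kcnh8 at 161 and 95.3 at day 7, under the uninjured-state values, and at 575, 291 and 356 at day 28. For Kcnip4 the injured-state range was 2933 to 5022 and the uninjured-state range 339 to 1327, beside 161 to 648 in uninjured-state control nuclei. Sorcs1 lay between 997 and 1470 in injured-state and 202 and 554 in uninjured-state nuclei.

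Npas3 did not follow the state. In uninjured-state nuclei it was at 301 and 264 CPM at day 7 and 178, 219 and 278 at day 28, in intermediate nuclei at 282 and 265 and 199, 237 and 237, and in injured-state nuclei at 238 and 223 and 167, 265 and 232. Within a library it was lowest in injured-state nuclei, except in day 28 mouse 2, where it was highest in them. Every one of these values is far above the 0.469 to 3.25 CPM of uninjured-state control nuclei. Gria3 was highest in intermediate nuclei in 5 of 5 libraries, at 344 to 658 CPM, against 190 to 408 in injured-state and 249.1 to 515 in uninjured-state nuclei.

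The contrast was sharpest in cluster 8, an uninjured-state cluster that held 1048 control and 118 day 28 nuclei. There Npas3 was at 2.1 CPM in control and 211 in day 28 nuclei, Kcnh8 at 0.4 and 5.3, and Dock10 at 1.6 and 15.9. Over the IRI nuclei of cluster 8 this was 42 UMIs of Npas3 and 1 of Kcnh8. Cluster 25 held 378 and 20 UMIs of the pair, and cluster 33 held 131 and 4. Cluster 27, also called uninjured-state, did not share this, with 508 and 515 UMIs. In the uninjured-state nuclei of a library as a whole the ratio of Npas3 to Kcnh8 UMIs was 1.39 to 3.93, against 0.215 to 0.561 in injured-state nuclei, 0.364 to 0.85 over all PT-like nuclei and 0.462 to 1.10 in endothelium-like nuclei. Intermediate PT-like nuclei, at 0.346 to 2.78, and stroma-like nuclei, at 0.725 to 2.75, overlapped the uninjured-state range. Npas3 and Gria3 were higher in uninjured-state nuclei than in summed endothelium- and leukocyte-like nuclei in 5 of 5 IRI libraries, Sorcs1 in 3, Kcnh8 in 2, and Dock10 and Kcnip4 in 0.

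**Figure D4:**
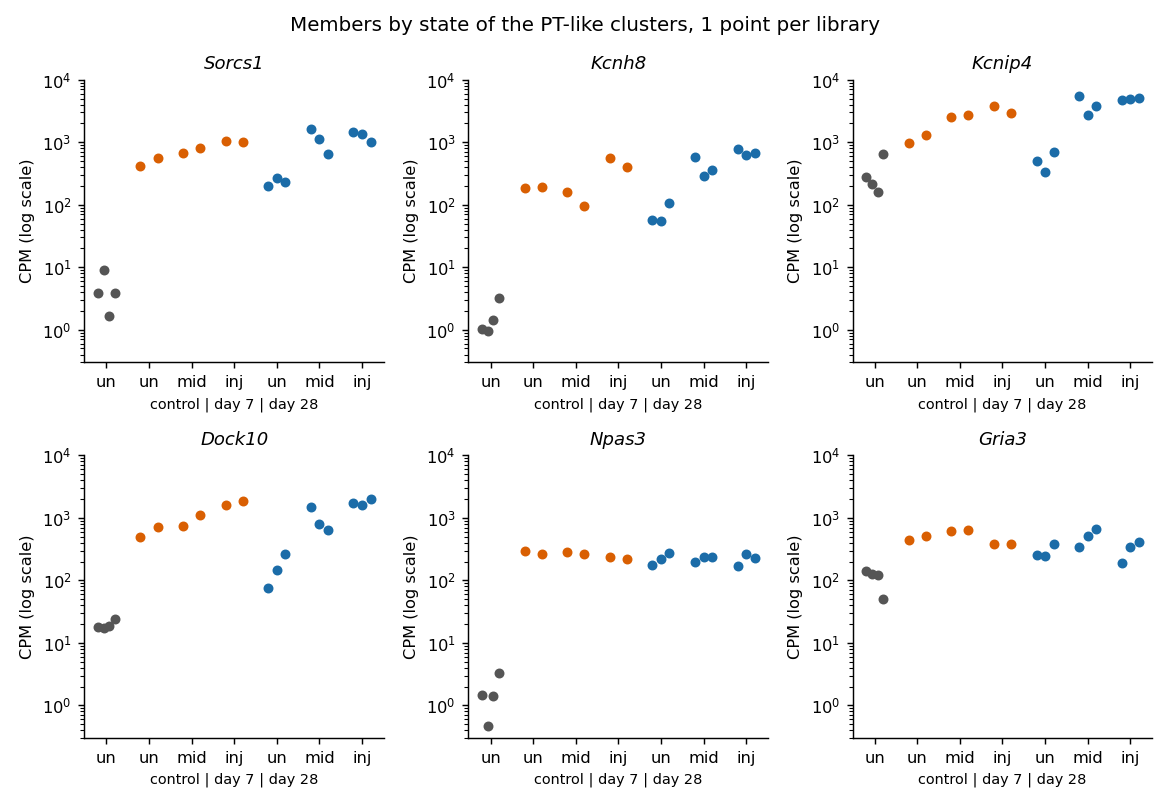
CPM of each gene on a log axis in uninjured-state (un), intermediate (mid) and injured-state (inj) PT-like clusters, 1 point per library, grey for control, orange for day 7 and blue for day 28. Npas3 stays at 167 to 301 CPM in every IRI state, while Dock10 climbs from uninjured to injured state in each IRI library and Kcnh8 is highest in the injured state.

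A small number of control nuclei carried injury transcripts, and Dock10 and Kcnip4 had higher pooled values in them. These levels are a description with no test, and how many of all genes were higher in these nuclei was not counted. UMIs were bunched, with the 374 of Kcnip4 in 28 nuclei, so the intervals below do not measure the spread between nuclei or mice. The 117 control PT-like nuclei with a Havcr1 or Vcam1 UMI, pooled over the 4 controls, held Dock10 at 540.1 CPM (95% Poisson interval 453 to 640, counting error only) and Kcnip4 at 1507 (1358 to 1668). The 10672 control nuclei with neither held 17.9 and 243. Kcnh8 and Npas3 had 4 UMIs each in the 117 nuclei, or 16.1 CPM (4.39 to 41.3), against 1.47 (0.973 to 2.12) and 1.41 (0.931 to 2.06) with neither transcript. Those UMIs lay in 3 nuclei for each gene, too few to compare. Sorcs1 had 2 UMIs, or 8.06 CPM (0.976 to 29.1), against 4.18 (3.32 to 5.21), and those intervals overlap. Gria3 was at 121 (81.6 to 173) with and 123 without an injury transcript.

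The 52 control nuclei that clustered with day 28 nuclei in cluster 15 are in part the same nuclei, since 50% of them held an injury transcript. They held Dock10 at 735 CPM (565 to 941) and Kcnip4 at 2964 (2611 to 3352), against 1704 and 6162 in the 602 day 28 nuclei of that cluster. Npas3 had 0 UMIs of 85699 there, which allows up to 35.0 CPM by 3 counts and 43.0 CPM as the upper end of the Poisson interval, against 199.7 in the day 28 nuclei. Sorcs1 was at 35.0 (7.22 to 102) against 1564, and Kcnh8 at 23.3 (2.83 to 84.3) against 602. The 52 nuclei came from all 4 controls (13, 14, 7 and 18), and with nuclei pooled there is no test of these levels.

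Injured TAL-like nuclei gave a further setting, in nuclei other than the PT-like ones described above but from the same libraries. Genotype, drug, sort and injury differ together here too. Levels are TMM-scaled CPM. Dock10 was at 46.6, 49.1, 44.4 and 58.0 CPM in the controls, at 772 and 718 at day 7 and at 307, 370.5 and 423 at day 28. Kcnip4 was at 135, 388, 55.5 and 448 CPM, at 1262 and 1953, and at 974, 1172 and 1898. Gria3 was at 72.0, 54.6, 59.2 and 8.29 CPM, at 193 and 299, and at 174, 171 and 216. IRI and control libraries did not overlap for any of these. How many of all genes separate in this way was not counted, so this is no trait particular to them.

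The rises over control, with both IRI times averaged, were 3.44 (SE 0.23, adjusted p = 1.1e-08) for Dock10, 2.64 (SE 0.42, adjusted p = 9.0e-05) for Kcnip4 and 1.93 (SE 0.29, adjusted p = 6.7e-05) for Gria3 in edgeR's quasi-likelihood test. Sorcs1 (291 to 540 CPM in IRI, at most 4.23 in controls), Kcnh8 (133 to 281, at most 8.47) and Npas3 (63.8 to 148, at most 3.7) passed the low-count filter through the IRI libraries and so had to differ; they are given as levels. Over all 7806 genes tested, 11.9% were called higher. Of 460 other genes at least as long as Dock10, 34.3% were. With the barcode set as a term Kcnip4 (2.09, adjusted p = 0.106) and Gria3 (1.79, adjusted p = 0.114) were no longer called, and 38 genes in all were called higher. The whole-class TAL-like level exceeded that of summed endothelium- and leukocyte-like nuclei of the same library in 0 of 5 IRI libraries for Dock10, 3 for Kcnip4 and 2 for Gria3, and the part of free RNA in the TAL-like rise was not tested.

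Levels differed between the TAL-like clusters, and cluster 19 held the highest. Cluster 19, with 326 day 7, 157 day 28 and 39 control nuclei, held Npas3 at 163 and 148 CPM at day 7 and 155, 132 and 147 at day 28. Cluster 12, with TAL-like nuclei of all groups, held it at 58.6, 28.5, 9.61, 15.6 and 25.6, from 6, 1, 1, 3 and 3 UMIs. Dock10 was at 560 to 917 CPM in cluster 19 and 25.6 to 154 in cluster 12 of the IRI libraries, and Kcnh8 at 168 to 377 and 0 to 48.0. Sorcs1 was at 467 to 1175 in cluster 19 and 8.53 to 307 in cluster 12. Pooled IRI nuclei of cluster 12 were also above its control nuclei for most of the genes: Sorcs1 was at 124 CPM at day 7 and 94.2 at day 28 against 3.60 in control, Npas3 at 50.9 and 16.9 against 1.80, Kcnip4 at 356 and 205 against 130 and Dock10 at 72.8 and 74.9 against 41.4. By library, day 28 mouse 1 was the highest for Sorcs1, Kcnip4 and Dock10, at 307, 509 and 154 CPM. Day 28 mice 2 and 3 had Kcnip4 at 135 and 51.2 and Dock10 at 62.3 and 25.6. The highest controls were at 229 and 92.2, so the Kcnip4 and Dock10 rises were not seen in each library. The 21 cluster 19 nuclei of control 2 held no UMI of Sorcs1, Kcnh8, Npas3 or Gria3, but only 18855 UMIs in all. That is too few to show these genes absent, and Kcnip4 and Dock10 had 2 UMIs each there. Cluster 19 nuclei of the other controls, under 20 per library, were not summed. On the few Npas3 UMIs of cluster 12, and unlike in PT-like nuclei, Npas3 was several times lower in the cluster of TAL-like nuclei shared with controls. That the segments differ in this was not tested.

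**Figure D5:**
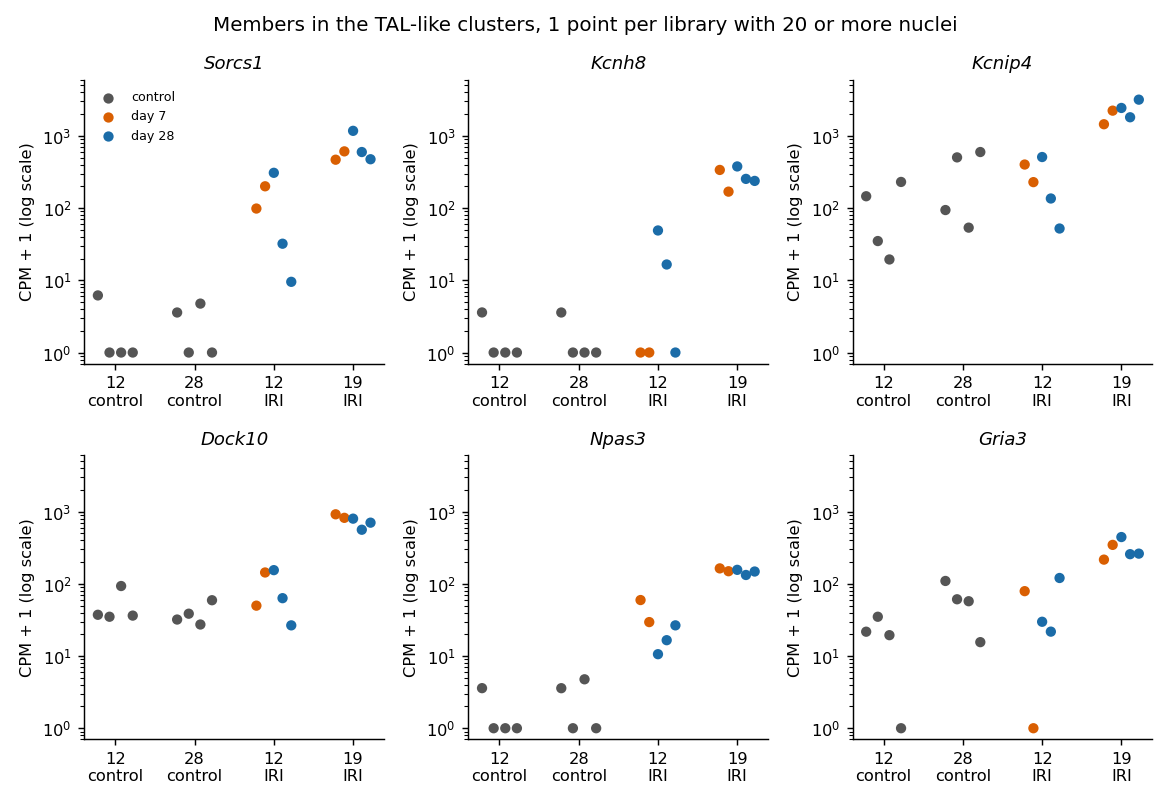
CPM plus 1 of each gene on a log axis in TAL-like clusters 12 and 28 of controls and clusters 12 and 19 of IRI libraries, 1 point per library with at least 20 nuclei. The 5 cluster 19 points of the IRI libraries lie above all other points in each of the 6 panels.

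The IRI effect was also set side by side in the classes (TAL-like minus PT-like, log2, library as a block). Since the genes were chosen for a PT-like rise, which tilts this difference downward, no test is read from it. It was -1.91 (SE 0.32) for Dock10, -2.21 (SE 0.99) for Kcnh8, -0.96 (SE 0.95) for Npas3, -0.37 (SE 0.86) for Sorcs1, -0.33 (SE 0.31) for Kcnip4 and 0.55 (SE 0.23) for Gria3.

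The summed ranges of the neuron marker list overlapped between IRI and control PT-like nuclei. Of 28 neuron markers 13 are in neither table, among them Snap25, Tubb3 and Dcx, and 2 more had no UMI in PT-like nuclei of IRI libraries. Of 8 tested, 1 was called higher and 0 lower at day 28 against control, and 0 and 4 at day 7, where 24.1% and 21.2% of all genes were called at day 28 and 26.3% and 24.8% at day 7. Those 4, Gad2, Th, Stmn3 and Nefm, had means of 0.431 to 5.11 CPM in controls and at most 0.2 at day 7. They passed the low-count filter through libraries of the other groups, so their calls say little. The summed level of the list was 16.1 to 61.9 CPM in PT-like sums of IRI libraries and 15.4 to 64.6 in controls, and that of the glia and Schwann list 46.3 to 77.5 and 45.5 to 85.1, with Sox10 in neither table. The neuron list's 64.6 was that of the shallow control 4, with controls 1 to 3 at 22.8, 31.0 and 15.4. Day 7 mice were at 16.1 and 24.9 and day 28 mice at 61.9, 23.1 and 37.2, so the overlap at day 28 rests largely on control 4. Of 3 glia and Schwann markers tested, 1 was called higher and 1 lower at each time. Erbb3, a neuregulin receptor, was lower, by -1.20 at day 7 and -0.95 at day 28 on the log2 scale. Mbp, a myelin gene, was higher, at 13.3 ± 1.59 CPM (SD, n = 2) at day 7 and 11.5 ± 6.82 (SD, n = 3) at day 28 against 0.983 ± 0.907 (SD, n = 4) in controls. The stroma list summed to 8.32 to 16.2 CPM in PT-like sums of controls and 33.8 to 57.8 in IRI libraries; its part in the results was not tested.

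Relatives of the genes moved both ways. The list of 58 family members (other Sorcs, Kcnh, Kcnip, Kcnd, Dock, Npas and glutamate receptor genes; chosen with earlier results of these data known) had 35 genes tested in PT-like sums. At day 28 against control 13 were higher and 6 lower, with a median log2 difference of 0.32 against 0.04 over all genes, where 24.1% of all genes were called higher and 21.2% lower. At day 7 the counts were also 13 and 6, with a median of -0.33 (all genes 0.01; 24.8% called lower).

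Kcnip3, the sister of Kcnip4, went from 0.056 ± 0.112 CPM (SD, n = 4) to 7.38 ± 0.719 (SD, n = 2) at day 7 and 4.49 ± 1.77 (SD, n = 3) at day 28. Grid1, a delta glutamate receptor gene, was at 20.8 ± 6.70 CPM in controls (SD, n = 4), 82.8 ± 11.9 at day 7 and 252 ± 74.9 at day 28. Grid1 rose between the IRI times, by 1.61 (SE 0.34, adjusted p = 0.016, edgeR). None of the 6 genes was called there, and whether Grid1 differs from them in this was not tested. Grik3, a kainate receptor gene, differed from control at day 7 by -3.72 on the log2 scale (SE 0.46, adjusted p = 5.6e-05, edgeR), from 68.6 ± 12.1 to 5.17 ± 0.073 CPM. In TAL-like sums 7 of 21 relatives tested were higher and 4 lower, where 11.9% and 17.5% of all genes were.

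Among 45 other long synaptic and channel genes, 13 were higher and 4 lower in PT-like sums at day 28 against control (median 0.21, all genes 0.04), and 14 and 17 at day 7 (median -0.55, all genes 0.01). The shares called over all genes were 24.1% and 21.2% at day 28 and 26.3% and 24.8% at day 7. Erbb4, a neuregulin receptor, was the widest rise, from 64.9 ± 39.5 CPM (SD, n = 4) to 1492 ± 313 at day 7 and 1418 ± 325 at day 28. Robo2, an axon guidance receptor, went from 3.88 ± 1.10 to 73.0 ± 25.2 and 31.9 ± 16.1. Ctnna2, the neuronal alpha-catenin gene, fell at day 28 by 2.83 on the log2 scale (SE 0.54, adjusted p = 0.0012, edgeR), from 236 ± 49.1 to 33.7 ± 26.2 CPM. Of 696 other genes as long as the 6, 35.6% were called higher and 11.5% lower at day 28 against control, beside 24.1% and 21.2% of all genes, with a median of 0.35; the difference was not tested.

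Genes with the most similar levels were found over 41 sums of a library and class with at least 50 nuclei, among 15010 genes, by Pearson's r of log2(CPM + 10). The sums share libraries, depth and the injury contrast itself, so r describes and does not test. Sorcs1 was closest to Npas3 (r = 0.964), Dock10 (0.963) and Kcnh8 (0.960). Dock10 had Relb (0.945), an NF-kB subunit gene, as its nearest gene outside the 6, and Kcnh8 had Lpp (0.95). Kcnip4 was closest to Nfkbiz (0.907), an NF-kB cofactor gene, Sema3c (0.888) and Pdgfb (0.881), and Gria3 to Rims2 (0.926), a presynaptic gene, Cdk6 (0.897) and Sh3d19 (0.894). Kcnip4 and Gria3 stood apart from the other 4, with none of the 6 among their 3 nearest genes.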

How the data were processed

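The authors deposited 2 tables of whole-number UMI counts per gene and nucleus, 1 for controls and 1 for IRI; nothing was rounded. Seurat, STAR, Cell Ranger and mm10 appear in the submitters' processing notes, with versions and strand setting not given in the sources used here. Chromium v2 or v3 kits were used, per the labels, and the sorter's gates removed doublets; no doublet caller was run. The deposited counts gave CPM, the UMIs of a gene over those of its sum, scaled to 1e+06. The 6 genes, the gene lists and the alternatives were chosen with earlier results of these data known.

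Nuclei were clustered without the 6 genes (scanpy 1.11.5, igraph 0.11.9: 2000 variable genes, 30 principal components, 20 neighbours, Leiden resolution 2, seed 0). Clusters were named from marker lists: other classes needed a mean log2 difference of 1.5, PT-like at least 5 raised proximal markers, and a PT-like state a score of 0.5. This scoring rule was set after the data were seen; 2 clusters with 248 nuclei stayed unnamed.

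Counts were summed per library and class, or per library and injury state. The test on sums of at least 20 nuclei was that of edgeR 4.0.16, run in R 4.3.3 (TMM, filterByExpr, quasi-likelihood F test, Benjamini-Hochberg threshold 0.05; SE is the log2 change divided by the square root of F), with all 9 libraries in 1 fit for PT-like and TAL-like sums and the library as a block for injury states. DESeq2 1.42.0 was an alternative. The tests of a difference between effects (class or day) were added after the data were seen. The scripts were tested on simulated data. Each library is 1 mouse. Named relatives were up to 4 per list and comparison with the largest change past the threshold. A gene among those most similar in level to the 6 is not reported here. No columns were left unmatched to a sample. Poisson intervals and floors of 3 counts cover counting error only. Of 19858 symbols 98.5% were found in GENCODE, and promoters came from RefSeq (GRCm38.p6).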

Additional observations from a re-analysis of the deposited data

Results flagged for a closer look

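In 24 groups of library values checked for 1 library far from the rest, 2 had one, and chance flags about 1 in 20. Kcnh8 in PT-like control sums was highest in control 4, the shallowest library, at 4.42 CPM, with the other 3 controls at 1.34 to 1.77. Kcnh8 in TAL-like control sums was highest in control 1, at 8.47 CPM from 6 UMIs, with the other 3 at 0. Without control 1 the TAL-like rise of Kcnh8 was 9.08 instead of 5.22 on the log2 scale, so that fold rests on those UMIs.

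The IRI effect on Dock10 had the widest class difference relative to its error, -1.91 on the log2 scale (SE 0.32, TAL-like minus PT-like). The PT-like side is the contrast on which the genes were chosen, so no test is read from it. TAL-like Dock10 was at 745 ± 38.2 CPM (SD, n = 2) at day 7 and 367 ± 57.7 (SD, n = 3) at day 28, and PT-like Dock10 at 1311 ± 79.1 and 1205 ± 168.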

How the results depend on the processing

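The number of the 6 genes called in each comparison stayed within 1.5 times the reported one under every alternative run: DESeq2, no low-count filter, nuclei under 1000 UMIs left out, Leiden seed 1, thresholds of 2 UMIs, the barcode set as a term, all genes of either table, the replicate block, and each library left out. With the barcode set as a term Gria3 was no longer called in PT-like sums, nor Gria3 and Kcnip4 in TAL-like sums. The TAL-like count, 6 reported and 4 with that term, includes Sorcs1, Kcnh8 and Npas3, which had to differ, so its stability says little. Of Dock10, Kcnip4 and Gria3 only Dock10 kept its TAL-like call with that term. The direction turned only for differences that were not called. Day 28 minus day 7 became 0.0241 for Dock10 and 0.0609 for Npas3 with only v3 libraries, 0.0354 and 0.0704 without day 28 mouse 1, and 0.003 for Npas3 with the barcode set as a term. Leaving out 1 library in turn, these differences ran from -0.235 to 0.0354 for Dock10 and from -0.272 to 0.0704 for Npas3. Vcam1-only minus Havcr1-only became 0.0179 for Kcnip4 without day 28 mouse 3 and 0.034 without day 7 mouse 1 (range -0.0836 to 0.034), and -0.0276 for Gria3 with 2 UMIs required. With Leiden seed 1 the Dock10 difference from control was 6.35 at day 7 and 6.23 at day 28, and with only v2 libraries (day 28 mouse 1 against controls, an alternative chosen after seeing the data) it was 5.17 and that of Gria3 0.93.

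Mice of the same number share nothing in the labels, and their deviations from the group means correlated between -0.22 and 0.02. With the replicate number as a block the 6 genes kept their calls, day 28 minus day 7 was 0.51 for Sorcs1, and 355 genes in all were called higher and 65 lower in place of 614 and 193. DESeq2 called 1048 and 374 there, only v3 libraries 1273 and 715, and leaving out 1 library 140 to 769 and 24 to 214, lowest without day 7 mouse 2. With the barcode set as a term 1719 and 1334 genes were called at day 28 and 1107 and 810 at day 7 against control, and 38 and 14 in TAL-like sums. Leaving out 1 library gave 2442 to 3925 and 2006 to 4269 at day 7 against control (3741 and 3520 with all), lowest without a day 7 mouse. For Vcam1-only against Havcr1-only (172 and 176) it gave 96 to 165 and 80 to 142, lowest without day 28 mouse 2. DESeq2 called 61 and 67 there, and 1096 higher with an injury transcript. Control 4 limits low levels: 1 UMI there is a larger share than in the deeper libraries.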

Other observations

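Antisense transcripts inside Sorcs1 and Kcnip4 were also counted. Gm45352, on the opposite strand within Sorcs1 (chr19:50146938-50180652, GRCm38), had 152 UMIs in PT-like nuclei of IRI libraries and 0 in those of controls, and Gm20700 within Kcnip4 (chr5:48590889-48599994) had 24 and 0. Whether the counting used strand is not given in the sources used here, so reads of a gene and of its antisense partner cannot be told apart.

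Kcnip4 was unevenly spread among control PT-like clusters. It was at 1038 CPM in cluster 3 and 587 in cluster 10, and at 13 in cluster 9 and 30.9 in cluster 4. Cluster 3 nuclei were shallow, at a median of 654.5 UMIs. Gria3 was at 273 and 248 CPM in clusters 9 and 4, at 145.7 in cluster 10, at 68.9 in cluster 3 and lowest, at 32.7, in cluster 7, where Kcnip4 was at 195. Among IRI nuclei Kcnip4 was highest in cluster 11, at 5270 CPM at day 7 and 8285 at day 28.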
